A study of Homo sapiens with 8 samples.

Results

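Expression was compared between HEK293T cells given a TET1 catalytic-domain plasmid and HEK293T cells given the empty vector. HEK293T derives from human embryonic kidney and expresses large T antigen of SV40. The arrays were chosen by sample title: TET1-CD (wild-type catalytic domain), mTET1-CD (catalytically mutant catalytic domain) and the vector control, which makes 3 of the 8 arrays of the series. Each held 1 sample, so there were 2 CD readings against 1 vector reading. Per the labels, the plasmids were delivered with FuGene HD, fluorescent cells were collected by sorting on day 3, and 100 ng of Trizol-extracted RNA was labelled with biotin. The series further holds 2 arrays of full-length TET1 plasmids (TET1-FL and mTET1-FL), 2 of lentiviral TET1 shRNA clones and 1 of a lentiviral control shRNA clone. No label names separate cultures, so the p-values measure only the spread between these samples, which may be technical. The labels do not name the promoter of the plasmids or the gate of the sort, and the amount of transgene per cell cannot be told apart from the number of cells that carry it.

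TET1 converts 5-methylcytosine in DNA to 5-hydroxymethylcytosine and further oxidised bases, which can end in loss of the methyl mark. The oxidation is carried out by the domain at the carboxyl end of the protein, while the amino-terminal part of the full-length protein holds a zinc finger that binds CpG-rich DNA. A catalytic-domain plasmid therefore supplies the enzyme without that DNA-binding part, and the catalytically mutant version is its counterpart without oxidation.

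The values are log2 signals of transcript clusters, the groups of probes that an array assigns to 1 transcript unit. Of 53617 clusters with values, 26760 were kept, those whose mean over the 3 arrays exceeded the mean of the 3 array medians (5.51 to 5.52). They include 11115 named clusters for 10405 gene symbols. Of 10 HEK293T line markers on the array, 9 lay above the array median on all 3 arrays, as did 4 of 6 blood cell markers and 0 of 7 endothelial and fibroblast markers. The summed level of the blood cell markers was 34.8 in TET1-CD and 35.0 in mTET1-CD, against 34.4 in the vector. That of the endothelial and fibroblast markers was 30.4 and 31.1, against 31.0. The part of other cell types in the results was not tested.

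TET1, the gene the plasmids supply, was read by 2 clusters whose differences were unequal. Cluster 16715048 stood at 12.10 in TET1-CD and 12.03 in mTET1-CD, against 5.86 in the vector. The CD arrays were thus 73.6-fold above the vector, a mean difference of 6.20 ± 0.06 on the log2 scale (limma SE). Cluster 16705381 stood at 10.42 and 11.05, against 9.51, a mean difference of 1.23 ± 0.39. The mutant plasmid's array was the higher of the CD arrays at this cluster, and both lay above the vector. With the full-length plasmids, cluster 16715048 stood at 11.80 and 11.91 and cluster 16705381 at 12.22 and 12.47, so the first was at a like level with either construct and the second was higher with full-length TET1. CD minus FL was 0.21 ± 0.08 at cluster 16715048 (limma adjusted p = 0.236) and -1.61 ± 0.25 at cluster 16705381 (adjusted p = 0.068), neither past the threshold of 0.05. The files do not say which part of TET1 each cluster reads.

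The CD arrays resembled each other more than either resembled the vector. Over the kept clusters, which share the platform and are not independent, r was 0.989 between TET1-CD and mTET1-CD, 0.959 between TET1-CD and vector and 0.964 between mTET1-CD and vector. The SD over clusters was 0.22 for TET1-CD minus mTET1-CD and 0.40 for mean CD minus vector, on the log2 scale. In the 3-array limma fit, 0 of 26760 clusters passed an adjusted p of 0.05 in either direction (0%), the lowest adjusted p being 0.156, while 7144 (26.7%) had an unadjusted p under 0.05. This fit has 1 residual degree of freedom, the difference between the CD plasmids, and an exact permutation test of 2 arrays against 1 cannot go below p = 0.333. In a fit of all 8 arrays, which takes its spread from the pairs of CD, FL and TET1 shRNA arrays and assumes that the vector varies like them, 132 clusters passed as higher (0.493%) and 44 as lower (0.164%). By gene these were 51 higher (0.49%) and 8 lower (0.0769%). At 24 of the 132 higher clusters the vector lay below its array median. Those 24 were kept only through the CD arrays and had to be higher in them. At 1 of the 44 lower clusters both CD arrays lay below their medians, so it was kept only through the vector. The counts by gene were not cleared of such clusters. Genes said below to pass or not pass are judged by the adjusted p of that 8-array fit. Each ± for CD minus vector is instead the limma SE of the 3-array fit, so it is not the basis of that verdict. The 3-array adjusted p was 0.156 for each of the 15 highest and 15 lowest genes other than KIAA0825 (0.175) and CFAP43 (0.189).

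By size, 318 clusters were at least 2-fold higher in both CD readings (1.19%) and 148 were at least 2-fold lower (0.553%). These readings share the vector array. Without a threshold of size, 40% of kept clusters lay above the vector in both readings and 40.9% below it. In the higher set the vector lay below all 7 other arrays of the series at 215 clusters (67.6%, against 13.3% of all kept clusters). In the lower set it lay above all 7 others at 125 (84.5%, against 15.5%). The vector's own departure and an effect of the plasmids cannot be told apart at such clusters. At 93 of the 318 higher clusters the vector lay below its array median, so these were kept only through the CD arrays. At 19 of the 148 lower clusters both CD arrays lay below their medians, so these were kept only through the vector. Counted by gene, 90 of 10405 were 2-fold higher in both readings (0.865%) and 22 were 2-fold lower (0.211%).

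**Figure D1:**
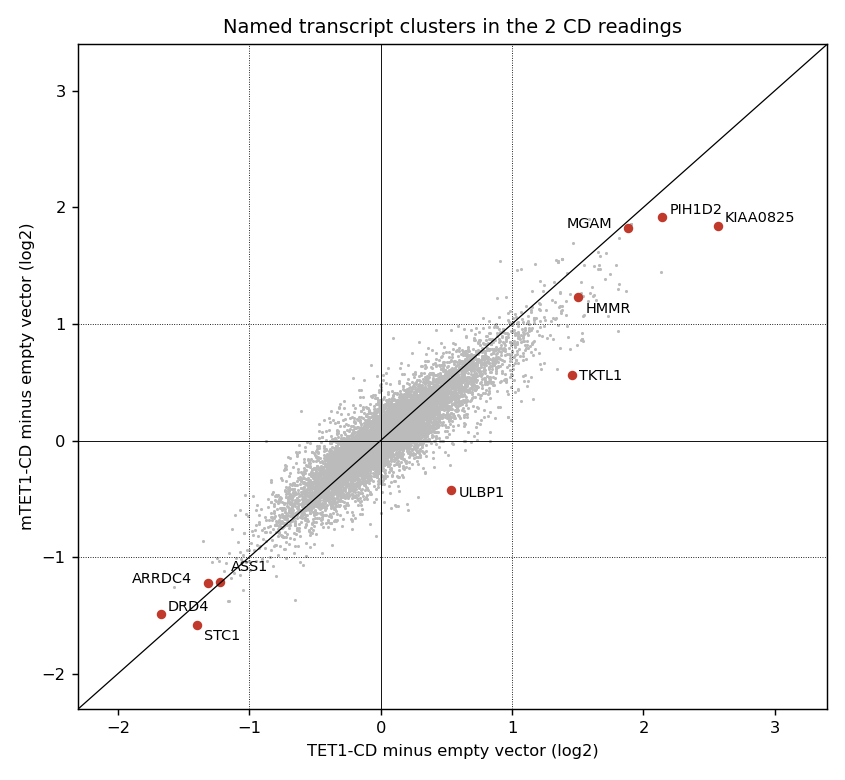
Each point is 1 named transcript cluster, with TET1-CD minus vector on the x axis and mTET1-CD minus vector on the y axis (log2); dotted lines mark 2-fold and the diagonal marks equal readings, and TET1 cluster 16715048, at 6.24 and 6.17, lies outside the frame. Of the protein-coding genes marked, KIAA0825, PIH1D2 and MGAM lie highest and DRD4 and STC1 lowest, and ULBP1 stands below the diagonal with readings of opposite sign.

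Each gene was taken by its brightest cluster, which for TET1 is 16705381, and ranked among genes with the same sign in both readings. The 15 highest protein-coding genes by mean CD minus vector lay between 1.46 and 2.20 on the log2 scale. By that rule both CD arrays exceeded the vector in each. In 9 of them, KIAA0825, PIH1D2, MGAM, CFAP43, RSPH4A, MPZL3, ANKRD31, ZNF425 and AGBL3, the vector lay below its array median. Background limits a signal there, so their folds may be understated and their order is uncertain. These 9 passed the filter on low signal only through the CD arrays and so had to be higher in them, and for that reason no call in the 8-array fit is given for them. KIAA0825 led with 6.84 in TET1-CD and 6.11 in mTET1-CD, against 4.27 in the vector, a mean difference of 2.20 ± 0.45. PIH1D2, a PIH-domain relative of the factors that assemble axonemal dynein, stood at 6.84 and 6.62, against 4.70, a mean difference of 2.03 ± 0.15. MGAM, the intestinal maltase-glucoamylase, stood at 6.31 and 6.25, against 4.43 (1.85 ± 0.06), and the FL, TET1 shRNA and control shRNA arrays also read it below their medians. Of these genes, KIAA0825 had the widest gap between the CD arrays.

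CFAP43, which belongs to the axoneme of motile cilia and the sperm tail, stood at 7.31 and 6.62, against 5.18 in the vector. Its mean difference was 1.79 ± 0.42. RSPH4A, a protein of the radial spoke head of motile cilia, stood at 6.89 and 6.78, against 5.17 (1.66 ± 0.08). AGBL3, a carboxypeptidase that trims glutamates from tubulin, stood at 6.85 and 6.72, against 5.23 (1.56 ± 0.09). By the rule of selection the vector was the lowest of the 3 arrays in each of these genes.

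The zinc finger genes ZNF480, ZNF75A, ZNF425 and ZNF416 and the THAP-domain gene THAP10 also belong to the 15. ZNF480 stood at 7.78 and 7.69, against 6.11 in the vector (1.63 ± 0.07), and passed. The control shRNA clone read it at 7.67, as high as the CD arrays, and CD minus that clone was 0.07. ZNF75A (1.58 ± 0.11) passed, ZNF416 (1.46 ± 0.19) and THAP10 (1.54 ± 0.20) did not, and ZNF425 was at 1.57 ± 0.13. POLR3C, a subunit of RNA polymerase III, had the highest level of the 15, with 10.43 and 10.26, against 8.78, and passed with 1.56 ± 0.12. SYT14, of the synaptotagmin family, did not pass at 1.78 ± 0.07. MPZL3 was at 1.65 ± 0.18 and ANKRD31, a meiotic recombination factor, at 1.59 ± 0.21. The TET1-CD reading was the larger at all 15, and CD lay above the control shRNA clone at all 15 by 0.07 to 2.04. Of these 15 the vector was below all 7 other arrays at 10.

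**Figure D2:**
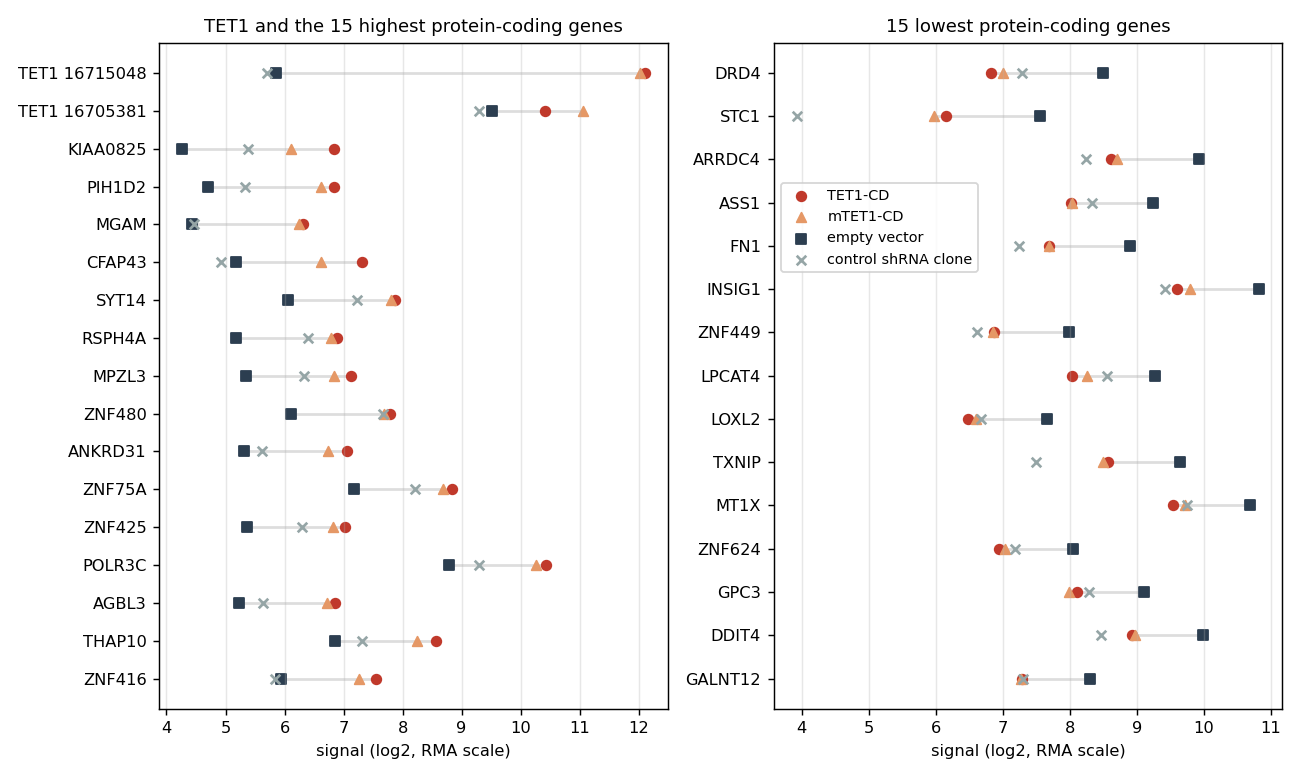
Log2 signal of each array for TET1 and the 15 highest protein-coding genes (left) and the 15 lowest (right), with TET1-CD, mTET1-CD, empty vector and the control shRNA clone as separate marks. The CD marks lie close together, and the vector stands apart from them in each gene shown. Among the 15 lowest, the control shRNA clone lies below both CD marks at STC1, TXNIP, DDIT4, FN1, ARRDC4, INSIG1 and ZNF449.

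The highest named genes that do not code for protein were the ribosomal protein pseudogenes RPL23AP82 and RPL23AP87, whose leading clusters hold identical values and cannot be separated. These stood at 8.49 and 8.45, against 6.59 in the vector (1.88 ± 0.05), and passed. Their kept clusters with other values were less far above the vector, and RPL23AP82 cluster 16931850 was not above it in both readings. RPL23AP82 cluster 16931850 read 7.15 in TET1-CD and 6.70 in mTET1-CD, against 7.15 in the vector, while RPL23AP87 cluster 17014952 read 7.70 and 7.43, against 6.66, and its cluster 16657476 read 7.41 and 6.99, against 6.58. SNAR-H, a small RNA with near-identical copies that the array may not separate, stood at 8.65 and 8.96, against 7.06 (1.74 ± 0.20), and did not pass. Of other SNAR genes, named after their values were seen, SNAR-D (1.52), SNAR-B1 (1.44) and SNAR-C1 (1.44) passed. SNAR-F and SNAR-G2, also 2-fold higher in both readings, did not. The lowest were SCARNA22, a small Cajal body RNA that guides modification of spliceosomal RNA, the pseudogene DPRXP4 and the antisense transcript GAS5-AS1. SCARNA22 stood at 7.59 and 7.90, against 9.16 in the vector (-1.41 ± 0.20). DPRXP4 was at -1.27 ± 0.14 and GAS5-AS1 at -1.26 ± 0.14. None of the 3 passed.

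The 15 lowest protein-coding genes lay between -1.58 and -1.03 on the log2 scale. They too were ranked among genes with the same sign in both readings, so both CD arrays had to lie below the vector. DRD4, a dopamine receptor, stood at 6.82 in TET1-CD and 7.00 in mTET1-CD, against 8.49 in the vector. It passed with -1.58 ± 0.12 (adjusted p = 0.044). STC1, a secreted glycoprotein hormone that acts on calcium and phosphate handling, stood at 6.16 and 5.97, against 7.55 (-1.49 ± 0.13), and did not pass (adjusted p = 0.072). FL arrays read STC1 at 7.67 and 7.39, near the vector, and the control shRNA clone read it at 3.93, so that CD was 2.14 above that clone. The order of STC1 between the CD arrays and a control thus depended on which control array was used.

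FN1, which encodes fibronectin, read 7.69 on both CD arrays, against 8.89 in the vector (-1.21 ± 0.05), and passed. LOXL2, a lysyl oxidase that cross-links collagen and elastin, stood at 6.48 and 6.60, against 7.65 (-1.11 ± 0.09), and passed. GPC3, a cell-surface heparan sulfate proteoglycan, stood at 8.10 and 7.99, against 9.10 (-1.05 ± 0.08), and passed. FN1 had the smallest gap between the CD arrays of these genes, and by the rule of selection all of them lay below the vector in both.

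INSIG1, which retains the sterol sensor SCAP in the endoplasmic reticulum, stood at 9.60 and 9.79, against 10.82 in the vector (-1.13 ± 0.13), and passed. ASS1, the argininosuccinate synthetase of arginine synthesis, stood at 8.02 and 8.03, against 9.24 (-1.22 ± 0.05), and did not pass (adjusted p = 0.070). LPCAT4, an enzyme of phospholipid remodelling, was at -1.13 ± 0.15, the metallothionein MT1X at -1.06 ± 0.12, and DDIT4, a stress-induced inhibitor of mTORC1, at -1.04 ± 0.06, and none of them passed. GALNT12, which starts O-linked glycosylation, passed at -1.03 ± 0.05. The zinc finger gene ZNF449 passed at -1.13 ± 0.05, and ZNF624 did not, at -1.05 ± 0.07. The vector lay above all 7 other arrays at 14 of the 15 lowest. Against the control shRNA clone, 8 of the 15 were lower in CD and 7 were higher, namely STC1, TXNIP, DDIT4, FN1, ARRDC4, INSIG1 and ZNF449.

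**Figure D3:**
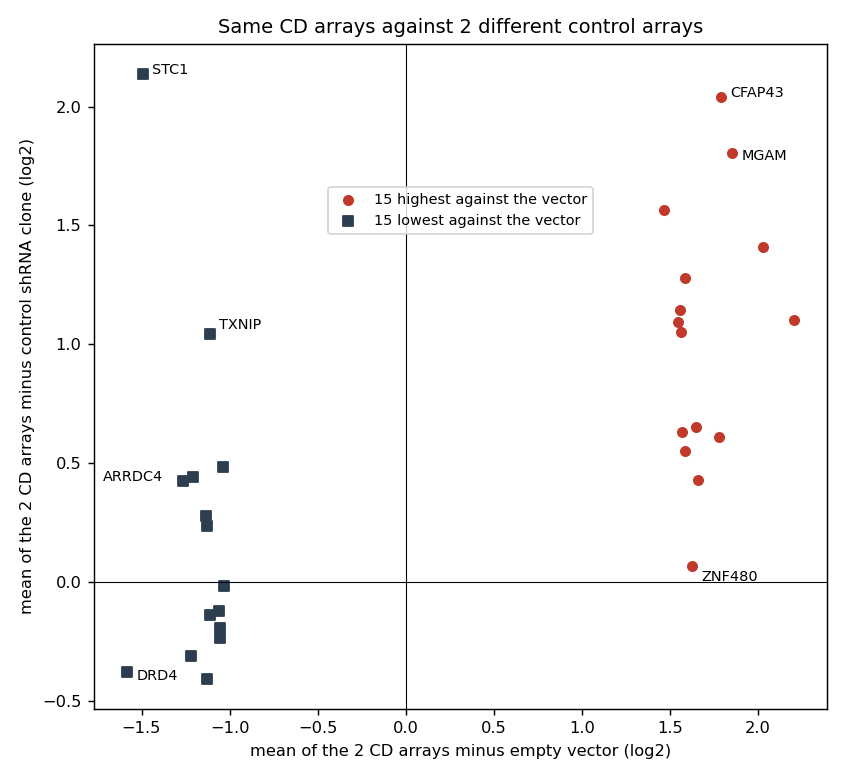
Mean of the CD arrays minus the empty vector (x axis) and minus the control shRNA clone (y axis), both log2, for the 15 highest (circles) and 15 lowest (squares) protein-coding genes against the vector. The 15 highest lie above 0 against either control, whereas the lowest spread from -0.41 for LPCAT4 to 2.14 for STC1 against the control shRNA clone.

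ARRDC4 and TXNIP, related arrestin-domain genes, are targets of the glucose-sensing factor MondoA and of its partner MLX, which bind paired E-box-like elements. ARRDC4 stood at 8.61 in TET1-CD and 8.71 in mTET1-CD, against 9.93 in the vector (-1.27 ± 0.08, adjusted p = 0.080). TXNIP, which binds thioredoxin and restrains glucose uptake, stood at 8.57 and 8.49, against 9.64 (-1.11 ± 0.07, adjusted p = 0.072). Neither passed, and both lay above the control shRNA clone, by 0.42 for ARRDC4 and by 1.04 for TXNIP. The windows of 250 bases before their starts are shown because they hold the letters CACGNG, the E-box-like form searched on both strands, in capitals. They come from RefSeq (GRCh38.p14), the ARRDC4 window at chr15:97960453-97960702 on the plus strand and the TXNIP window at chr1:145996580-145996829 on the minus strand.
ARRDC4: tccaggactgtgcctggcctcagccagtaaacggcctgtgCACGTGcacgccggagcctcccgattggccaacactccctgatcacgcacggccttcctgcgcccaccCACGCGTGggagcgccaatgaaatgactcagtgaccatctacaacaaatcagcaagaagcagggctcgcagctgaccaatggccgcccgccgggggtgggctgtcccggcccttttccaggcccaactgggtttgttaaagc
TXNIP: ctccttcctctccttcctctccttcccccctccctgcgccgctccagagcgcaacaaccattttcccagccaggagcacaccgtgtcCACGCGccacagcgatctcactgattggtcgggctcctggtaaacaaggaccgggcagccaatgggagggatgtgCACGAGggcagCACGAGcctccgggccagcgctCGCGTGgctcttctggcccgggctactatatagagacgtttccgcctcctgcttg
ARRDC4 holds 3 matches, starting 210, 142 and 140 bases before the start, the last pair overlapping, and TXNIP holds 4, at 163, 88, 77 and 55 bases. These letters are common, since 36.7% of the kept genes with a window and 26.5% of all 27305 windows hold them. A match is a description of the letters and not a measured site. The list of MondoA genes had 10 kept members, of which 4 were above and 6 below the vector in both readings, with a median of -0.12 and 0 passing. Its members other than ARRDC4 and TXNIP lay between -0.76 and 0.70. The arrestin-domain gene ARRDC3 stood at 8.91 and 8.73, against 8.13 (0.70 ± 0.12), and KLF10 at 9.19 and 9.05, against 9.88 (-0.76 ± 0.10). KLF10 was 1.16 above the control shRNA clone, and 7 of the 10 members had the opposite sign with that clone as the control, the list's median being 0.13. MLX was at 0.33, MLXIP (MondoA) at 0.14 and ARRDC2 at 0.11, and the remaining members, ANGPTL4 (-0.02), MLXIPL (-0.22) and HK2 (-0.36), lay below 0.

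Mitotic genes were the list most evenly above the vector. Of 28 kept members, 27 were higher in both CD readings and 0 lower in both, where 43.9% of all kept genes were higher in both and 38.7% lower. The median was 0.52 (0.53 for TET1-CD and 0.46 for mTET1-CD), beside 0.02 over all kept genes. HMMR, a hyaluronan receptor that also acts at the spindle, stood at 10.04 and 9.77, against 8.54 in the vector (1.37 ± 0.17), and passed (adjusted p = 0.044). CDC20, the activator of the anaphase-promoting complex, stood at 11.15 and 11.27, against 10.18 (1.03 ± 0.09), and passed (adjusted p = 0.048). CDC25C, the phosphatase that activates CDK1, at 0.87 ± 0.10, and the mitotic kinase PLK1, at 12.10 and 12.06 against 11.28 (0.81 ± 0.05), did not pass. The list's median against the control shRNA clone was 0.64, and the vector was below all 7 other arrays at 6 of the 28. The median was 0.45 for FL minus vector, which shares the vector array, and 0.06 for CD minus FL.

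Many mitotic genes carry a CHR element, TTTGAA, near the start, which the DREAM complex and MuvB-containing activators bind. The windows of the mitotic genes with the largest differences that hold it are shown with the element in capitals (RefSeq, GRCh38.p14, plus strand for each). HMMR lies at chr5:163460382-163460631, CDC20 at chr1:43358731-43358980 and PLK1 at chr16:23678639-23678888.
HMMR: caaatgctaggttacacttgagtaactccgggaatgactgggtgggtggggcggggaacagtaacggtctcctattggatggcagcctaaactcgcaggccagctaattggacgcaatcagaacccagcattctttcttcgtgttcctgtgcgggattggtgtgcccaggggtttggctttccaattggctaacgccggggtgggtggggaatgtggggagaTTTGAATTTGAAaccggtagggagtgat
CDC20: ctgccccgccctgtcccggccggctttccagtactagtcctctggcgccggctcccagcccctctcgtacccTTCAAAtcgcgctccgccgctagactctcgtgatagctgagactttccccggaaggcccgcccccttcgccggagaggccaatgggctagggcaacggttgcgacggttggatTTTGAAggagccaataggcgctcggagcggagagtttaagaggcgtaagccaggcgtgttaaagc
PLK1: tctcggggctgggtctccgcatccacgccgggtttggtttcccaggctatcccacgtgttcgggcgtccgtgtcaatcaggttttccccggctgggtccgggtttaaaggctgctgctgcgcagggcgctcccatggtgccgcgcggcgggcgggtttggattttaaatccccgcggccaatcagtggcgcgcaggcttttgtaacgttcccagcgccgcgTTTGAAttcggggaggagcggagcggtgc
The element starts 28 and 22 bases before the start in HMMR, 178 and 65 in CDC20 and 29 in PLK1. Searched on both strands, TTTGAA was in 13 of 24 mitotic windows (54.2%), in 8.25% of windows of kept genes and in 13.6% of all windows. The CCAAT box was in 83.3% of the mitotic windows and in 34.8% of those of kept genes. Of the 90 genes 2-fold higher, 61 had a window, with a median GC content of 60.8% and a median of 19 CpG sites. Of the 22 genes 2-fold lower, 11 had one, with 68.4% and 21, beside 65.2% and 21 for kept genes. These are descriptions of sequence, and methylation was not measured in these files.

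DNA replication genes, which peak earlier in the cell cycle, were divided. Of 26 kept members, 15 were higher in both readings and 8 lower, the median was 0.07 and 0 passed. CDC6, which loads the replicative helicase, stood at 10.13 in TET1-CD and 10.13 in mTET1-CD, against 9.69 in the vector (0.44 ± 0.05). CDT1, its partner in loading, stood at 9.06 and 9.24, against 9.81 (-0.67 ± 0.12). UHRF1, which brings DNMT1 to hemimethylated DNA, was at 0.49 ± 0.07 and the helicase-complex subunit GINS3 at 0.40 ± 0.06. With the control shRNA clone as the control, CDT1 was at 0.62 and UHRF1 at -0.41, 13 of the 26 had the opposite sign, and the median was -0.07.

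Targets of p53 had the highest median of the lists, at 0.59 (0.72 for TET1-CD and 0.46 for mTET1-CD). Large T antigen binds and inactivates p53 in this line, and p53 targets can also be set by other factors. Of 16 kept members, 13 were higher in both readings and 2 lower, and 0 passed. RRM2B, the ribonucleotide reductase subunit for DNA repair, stood at 8.03 and 7.99, against 6.88 (1.13 ± 0.05, adjusted p = 0.057). The polo-like kinases PLK2 (1.00 ± 0.20) and PLK3 (0.94 ± 0.06), the nuclease AEN (0.93 ± 0.07), the stress cytokine GDF15 (0.86 ± 0.15) and the pro-apoptotic BAX (0.75 ± 0.06) followed. TP53INP1 stood at 8.05 in TET1-CD and 7.46 in mTET1-CD, against 6.91, the widest gap between CD arrays in the list. EDA2R, SESN1, TIGAR and SPATA18 lay between 0.54 and 0.60, TP53I3 was at 0.33, TRIAP1 at 0.23 and BBC3 at 0.08. SESN2 (-0.23) and CCNG1 (-0.26) were lower. The list's median was 0.49 against the control shRNA clone and 0.82 for FL minus vector, which shares the vector array.

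**Figure D4:**
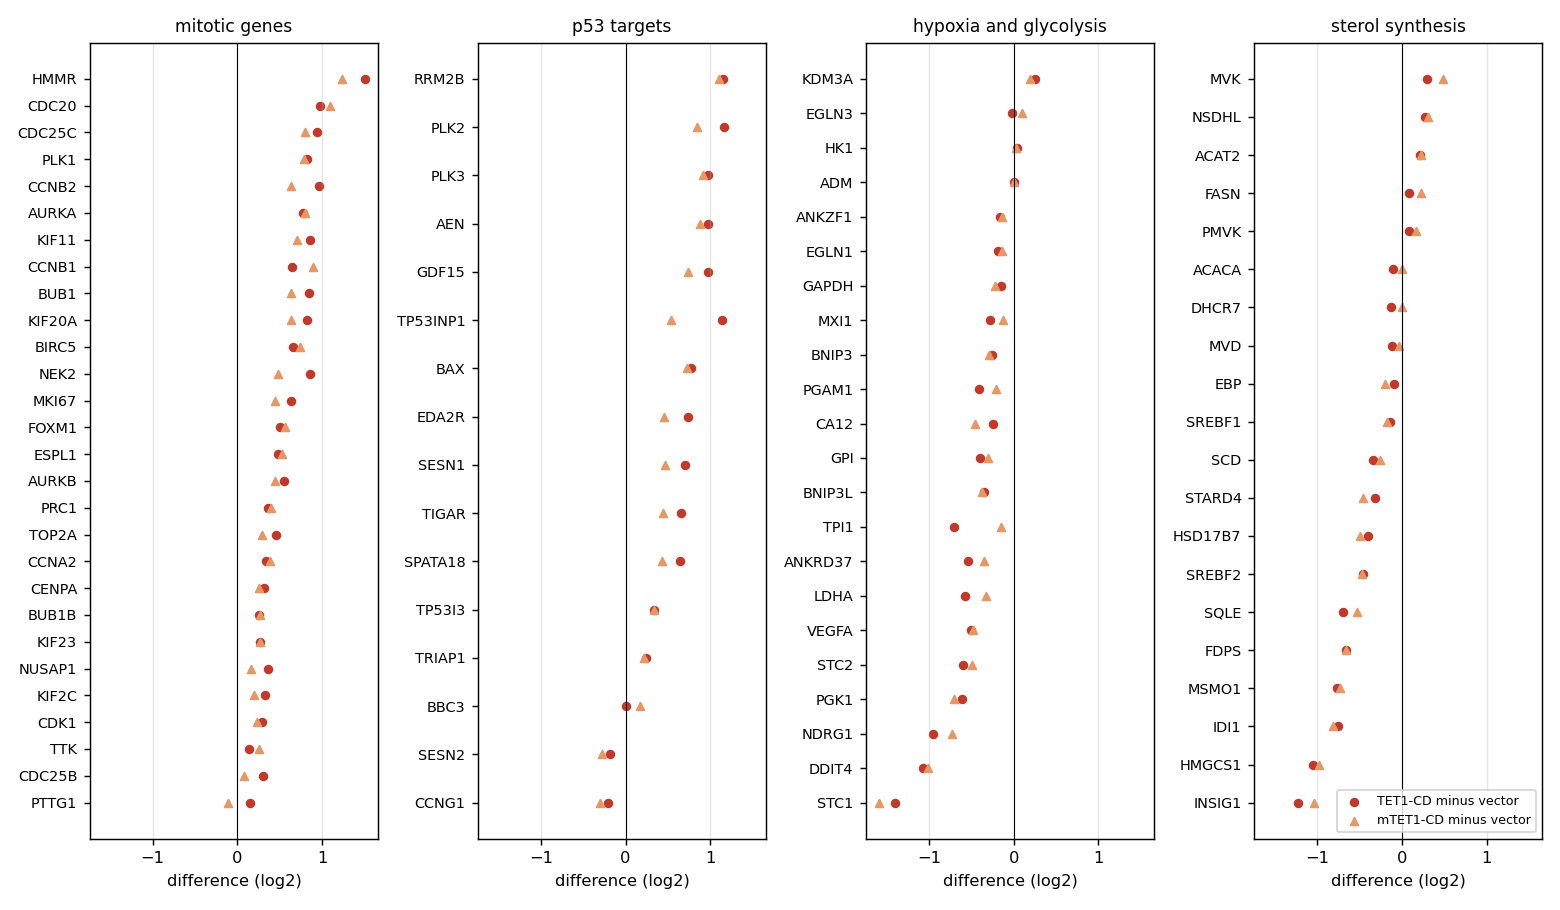
TET1-CD minus vector (circles) and mTET1-CD minus vector (triangles), both log2, for every kept member of 4 gene lists. Mitotic genes and most p53 targets lie right of 0, while most hypoxia and sterol genes lie left of it, with STC1 and INSIG1 lowest in their panels.

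Hypoxia and glycolysis genes lay mostly below the vector. Of 22 kept members, 18 were lower in both readings and 2 higher, the median was -0.35 and 0 passed. Beyond STC1 and DDIT4, the hypoxia-induced NDRG1 stood at 7.22 and 7.44, against 8.17 in the vector (-0.84 ± 0.14), and PGK1, a kinase of glycolysis, at 9.01 and 8.92, against 9.62 (-0.65 ± 0.07). STC2 (-0.55), VEGFA (-0.49), LDHA (-0.45), ANKRD37 (-0.44) and TPI1 (-0.42) followed. BNIP3L, GPI, CA12, PGAM1 and BNIP3 lay between -0.36 and -0.27, and MXI1, GAPDH, EGLN1 and ANKZF1 between -0.21 and -0.15. HK1 (0.03), EGLN3 (0.04) and KDM3A (0.22) were above 0, and ADM read 6.64 on all 3 arrays. With the control shRNA clone as the control the list's median was -0.00, and 7 of the 22 had the opposite sign, among them NDRG1 at 0.55 and VEGFA at 0.29. The vector was above all 7 other arrays at 7 of the 22.

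Sterol synthesis genes, which SREBP2 drives when sterols are low, had a median of -0.23, with 13 of 20 kept members lower in both readings and 5 higher. INSIG1 passed and the other 19 did not. HMGCS1, which makes HMG-CoA, stood at 7.03 and 7.10, against 8.08 in the vector (-1.02 ± 0.06, adjusted p = 0.057). The isoprenoid enzyme IDI1 was at -0.79 ± 0.06 and the demethylating oxidase MSMO1 at -0.75 ± 0.05. With the control shRNA clone as the control, the list's median was 0.00 and 11 of the 20 had the opposite sign, IDI1 and MSMO1 standing at 0.03. The vector was above all 7 other arrays at 8 of the 20.

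Amino-acid response genes under ATF4 had a median of -0.17, with 13 of 19 lower in both readings, 2 higher and 0 passing. ASNS, asparagine synthetase, stood at 8.52 and 8.43, against 9.32 in the vector (-0.85 ± 0.07), and the mitochondrial PEP carboxykinase PCK2 was at -0.83 ± 0.10. VLDLR (-0.75) and ATF3 (-0.68) followed. With the control shRNA clone as the control the median was 0.14, 9 of the 19 had the opposite sign, ATF3 was at 1.07 and ASNS at 0.15. The vector was above all 7 other arrays at 8 of the 19. The lists of protein folding were mixed. Of 12 ER folding genes 6 were lower in both and 3 higher (median -0.16), led by the oxidase ERO1A at -0.77, and of 13 heat shock chaperones 5 were higher and 4 lower (median 0.01), led by HSPH1 at 0.56, which was at -0.39 against the control shRNA clone.

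Extracellular matrix genes had the lowest median of the lists with more than 1 kept member, at -0.38, with 14 of 17 lower in both readings and 1 higher. FN1 and LOXL2 passed. NID2, a basement membrane nidogen, stood at 7.24 and 7.44, against 8.22 in the vector (-0.87 ± 0.13), and TIMP1, an inhibitor of matrix metalloproteinases, was at -0.73 ± 0.06. The vector was above all 7 other arrays at 11 of the 17, and the list's median against the control shRNA clone was -0.02, with TIMP1 at 0.50. YAP-TEAD targets had a median of -0.12 over 14 members, with 9 lower in both, 2 higher and 0 passing. MYOF stood at 0.56 and CRIM1 at -0.47. The vector read MYOF at 5.28, below its array median, so MYOF was kept only through the CD arrays and had to be higher in them.

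KRAB zinc finger genes, which encode repressors clustered on chromosome 19, had a median of 0.38 (0.47 for TET1-CD and 0.30 for mTET1-CD). Of 34 kept members, 26 were higher in both readings, 5 lower and 0 passed. The list does not hold the zinc finger genes ZNF480 and ZNF75A, which passed, so its count does not cover them. ZNF230 stood at 6.26 and 6.28, against 4.84 in the vector (1.43 ± 0.05). ZNF223 stood at 6.72 and 6.26, against 5.18 (1.31 ± 0.29), ZNF430 at 7.29 and 6.83, against 5.76, and ZNF461 was at 1.09 ± 0.15. The vector read ZNF230, ZNF223 and ZNF461 below its array median, so these genes were kept only through the CD arrays. They therefore had to be higher in the CD arrays, also in the count of 26. The median of the list was 0.90 against the control shRNA clone and 0.56 for FL minus vector, which shares the vector array.

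Genes tied to DNA methylation were of interest because of the enzyme supplied. The list of TET and DNA methylation genes had a median of 0.31 over 15 kept members, with 12 higher in both readings, 2 lower and 0 passing, where TET1 is counted by cluster 16705381. TDG, the glycosylase that removes oxidised methylcytosine, stood at 8.56 and 8.54, against 7.90 in the vector (0.65 ± 0.05). OGT, which binds TET proteins, stood at 10.58 and 10.61, against 11.14 (-0.55 ± 0.05). Against the control shRNA clone TDG was at -0.37 and the list's median was 0.10.

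Lists of genes whose promoters are often methylated in other settings differed in the sign of their medians. Over 25 CpG-island genes often methylated in cancer, the median was -0.17, and 7 were higher in both readings and 15 lower. Among them APC, the WNT pathway suppressor, was at 0.80, RASSF1 at 0.61, the cyclin CCND2 at -0.66 and the protocadherin PCDH10 at -0.62. The other kept CCND2 cluster, 16760142, was above the vector in both readings, at 5.95 and 5.89, against 5.84. Imprinted genes had a median of -0.03, with 2 of 12 higher and 6 lower. Germline and cancer-testis genes had 5 of 17 members kept, with 3 higher and 2 lower and a median of 0.30. TEX14, of the germ cell bridge, stood at 6.58 in TET1-CD and 5.92 in mTET1-CD, against 5.05 (1.20 ± 0.41), with the vector below its array median. The vector also read STAG3, whose mean difference is the list's median, below its array median. Both genes were kept only through the CD arrays and had to be higher in them, also in the count of 3. HOX genes had a median of -0.11, with 9 of 26 higher and 14 lower, HOXC9 being lowest at -0.71. None of these members passed.

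In the remaining lists 0 members passed. Cytosolic ribosomal protein genes had a median of -0.18 (-0.24 for TET1-CD and -0.12 for mTET1-CD), with 26 of 37 lower in both and 2 higher, and RPL39 was lowest at -0.68. Respiratory chain subunits had a median of -0.13, with 11 of 15 lower and 1 higher. Immediate early genes had a median of -0.10, with 11 of 23 lower and 6 higher, among them FOSL1 at 0.89 and EGR1 at 0.77, and EGR1 was at -0.56 against the control shRNA clone. Interferon response genes had a median of 0.09, with 9 of 15 higher and 3 lower, and of -0.09 against the control shRNA clone. NF-kB and inflammatory genes had a median of 0.04, with LIF, a cytokine of the interleukin-6 family, at 6.32 and 6.44, against 5.33 in the vector (1.05 ± 0.09), which lies below the vector's array median. LIF was thus kept only through the CD arrays and had to be higher in them. Urea cycle genes had a median of 0.01, with ASS1 lowest and the polyamine enzyme ODC1 at 0.62, or -0.43 against the control shRNA clone, where the list's median was -0.20. HEK293T line markers had a median of -0.33 over 9 members, with 0 higher and 6 lower, and of 0.00 against the control shRNA clone, the intermediate filament gene VIM lowest at -0.55. Of 4 kept blood cell markers 1 was higher and 2 lower (median -0.01), and the 1 kept endothelial and fibroblast marker, THY1, was at -0.68.

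**Figure D5:**
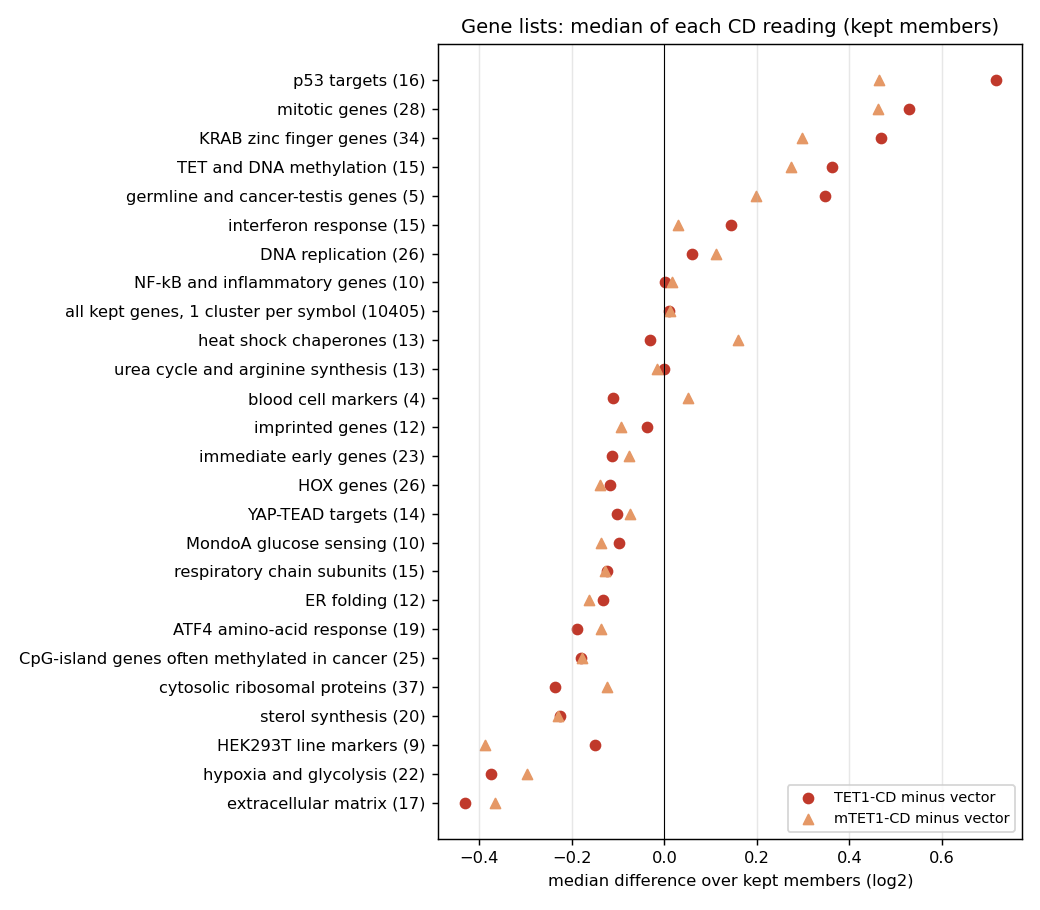
Median difference from the vector (log2) of TET1-CD (circles) and mTET1-CD (triangles) over the kept members of each list with at least 3 of them, number of members in brackets. p53 targets and mitotic genes lie highest, extracellular matrix genes lowest for TET1-CD and HEK293T line markers lowest for mTET1-CD, and all kept genes lie near 0.

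The labels set the CD plasmids apart as wild-type and catalytically mutant, and TET1-CD minus mTET1-CD has 1 array on each side and therefore no test. Of 26760 clusters, 37 were 2-fold higher in TET1-CD (0.138%) and 40 were 2-fold lower (0.149%). The highest protein-coding genes for this difference were ULBP1, TKTL1 and CCDC30. ULBP1, a ligand of the NKG2D receptor of natural killer cells, stood at 7.49 in TET1-CD and 6.53 in mTET1-CD, with the vector at 6.95 between them. TKTL1, a transketolase-like gene, stood at 6.65 and 5.75, with the vector at 5.19. CCDC30 stood at 6.85 and 5.99, with the vector at 5.05. Lower in TET1-CD were TCP10L, at 5.88 and 6.66 with the vector at 5.78, and TET1 cluster 16705381. SERF2 cluster 16808363 was also lower, at 7.19 and 7.82 with the vector at 7.57. Against the vector alone, 607 clusters were 2-fold higher in TET1-CD (2.27%) and 420 in mTET1-CD (1.57%), while 265 (0.99%) and 307 (1.15%) were 2-fold lower.

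Whether these values are particular to the catalytic domain was tested as CD minus FL in a limma fit of the 5 plasmid and vector arrays. In it 13 clusters were higher in CD (0.0486%) and 122 lower (0.456%), with 1 named gene higher (0.00961%) and 10 lower (0.0961%). The higher gene was MGAM, at 6.31 and 6.25 in CD, against 4.98 and 4.89 in FL (1.34 ± 0.08, limma adjusted p = 0.0491). Both FL arrays and the vector read MGAM below their medians, so it was kept only through the CD arrays and this call is a description. STC1 was at -1.47 ± 0.14 and ARRDC4 at -0.71 ± 0.08 in CD minus FL, with limma adjusted p of 0.051 and 0.053, and neither passed. Genes lower in CD than in FL, chosen for naming after their values were seen, include DDIT3, the CHOP stress factor. It stood at 6.58 and 6.57 in CD, against 7.63 and 7.60 in FL (-1.04 ± 0.07). The vector read DDIT3 at 6.63, near the CD arrays. TERC, the telomerase RNA, stood at 10.33 and 10.34 in CD, against 11.15 and 11.20 in FL (-0.84 ± 0.07), with the vector at 11.05. Leaving out any 1 of the 4 plasmid arrays left 0 clusters called in this comparison.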

How the data were processed

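RNA of 8 samples was measured on Affymetrix arrays, of which 3 (TET1-CD, mTET1-CD, vector) carry the comparison. The authors deposited log2 values. Affymetrix Expression Console 1.3.1 and RMA are named, without roles or order, per the submitters' processing notes, and the build is not given in the sources used here. Of 53981 table entries, 364 lacked values. Names came from the platform annotation. All 16098 named clusters matched RefSeq by gene number (GRCh38.p14), and 391 symbols have several kept clusters, so lists use the cluster with the highest mean.

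Clusters were kept where the mean of the 3 arrays exceeded the mean of their medians. Tests used limma 3.58.1 under R 4.3.3 (lmFit, eBayes, Benjamini-Hochberg, threshold 0.05) on these log2 values with no further scaling. The prior SD was 0.0536 with 0.993 degrees of freedom. The fits were tested on simulated data. Named genes are TET1, STC1 and ARRDC4, the 15 highest and lowest protein-coding genes, the 3 highest and lowest others, the 3 genes most apart between the CD plasmids in each direction, the 4 largest members of each of 26 lists, and every kept member of the p53, MondoA and hypoxia lists. The highest and lowest genes against the vector were ranked among those with the same sign in both CD readings. Members and lists were chosen with earlier results of these data known. Alternatives changed the filter, the scaling, the arrays in the fit, the control array and the prior, and left out each CD array. No arrays were identical. Precision is limited by the number of arrays.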

Additional observations from a re-analysis of the deposited data

Results flagged for a closer look

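ULBP1 was 0.96 higher in TET1-CD than in mTET1-CD on the log2 scale, with the vector between them. PEG10, an imprinted gene derived from a retrotransposon, was 0.72 higher in TET1-CD, at 6.17 against 5.44 in mTET1-CD, with the vector at 5.52. SERF2 was -0.63 in TET1-CD minus mTET1-CD at cluster 16808363. Its kept cluster 16800322 read 6.23 in TET1-CD and 6.51 in mTET1-CD, both below the vector at 6.64. At the flagged clusters of these 3 genes the readings against the vector had opposite signs. The difference rests on 1 array a side and was not tested.

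MGAM, which only the CD arrays read above their medians, and PCDH10 drew attention because their difference from the vector differed between the constructs in limma. MGAM was 1.34 higher in CD than in FL, which is a description because it was kept only through the CD arrays. PCDH10, a protocadherin whose promoter is often methylated in cancer, was at -0.92 ± 0.08 in CD minus FL (adjusted p = 0.0497), at 7.84 and 7.80 in CD, against 8.79 and 8.69 in FL and 8.44 in the vector.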

How the results depend on the processing

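The count of clusters past an adjusted p of 0.05 for CD minus vector was 0 under every filter, scaling, prior and left-out CD array tried; it was 1 higher with 5 arrays in the fit, and 132 higher and 44 lower with 8. Counts of 2-fold clusters in both readings were 318 higher and 148 lower. They were 497 and 451 with no filter, 90 and 22 with 1 cluster per named gene, and 467 and 337 with the control shRNA clone in place of the vector, so the share that was higher, 68.2%, became 52.4%, 80.4% and 58.1%. Leaving out a CD array gave 420 to 607 higher and 265 to 307 lower. For TET1-CD minus mTET1-CD, the counts of 37 and 40 became 280 and 214 with no filter, 93 and 70 where 2 of 8 arrays had to exceed their median, and 0 and 0 with 1 cluster per gene. CD minus FL gave 27 higher and 253 lower with all 8 arrays and 142 and 538 with arrays centred on their medians, and 0 in either direction when any plasmid array was left out, alternatives chosen after seeing the data. With the control shRNA clone as the control, 47 of the 169 named clusters had the opposite sign, 32 of them below the vector. Those 2-fold apart from the vector in both readings were 8: ARRDC4 turned to 0.42, STC1 to 2.14, FN1 to 0.44, INSIG1 to 0.28, ZNF449 to 0.24, TXNIP to 1.04, DDIT4 to 0.48 and GAS5-AS1 to 0.028; the cause was not tested. Of 1169 other values under the scalings and filters, 1153 kept their sign. No paired analysis was possible because each plasmid and the vector has 1 array.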
